A study of Mus musculus with 16 samples.

Results

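Long noncoding RNA (lncRNA) genes were examined in the livers of mice with and without platelet thrombospondin 1, fed a control diet or a diet that causes steatohepatitis. A gene was a member when the deposited tables gave it a long noncoding biotype (lincRNA, antisense, processed transcript, sense intronic or bidirectional promoter lncRNA) and placed it outside the mitochondrial genome. By this rule 335 of 5205 listed genes were members, 163 of 2558 in the table of the TSP1F/F mice, 200 of 3399 in the table of the TSP1ΔPf4 mice and 28 in both, which is 17.2% of the former and 14% of the latter. The biotype label did not hold for every member. RefSeq lists 8 of the 335 as protein-coding (Anxa13, Cct6a, Gm6712, Gpr141b, Ifi30, Ptpmt1, Tmem134 and Trerf1), and 121 were not found in the RefSeq table.

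Long noncoding RNAs are transcripts that are processed much like messenger RNAs but carry no long open reading frame. Some act in the nucleus, as Neat1 does by building the nuclear bodies called paraspeckles, some are imprinted, and many are read from the strand opposite a coding gene or from a start site shared with one. Others serve mainly as hosts: snoRNAs, which guide the modification of ribosomal RNA, are cut from the introns of Gas5, Zfas1 and the Snhg genes, and several microRNAs are cut from transcripts such as Mir22hg.

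The livers came from 16 male C57BL6 mice, 4 in each of 4 groups. TSP1F/F mice (labelled WT) carry a floxed Tsp1 gene and no Cre, and TSP1ΔPf4 mice (labelled KO) carry the same floxed gene with a Cre driven by the platelet factor 4 promoter, which deletes it in megakaryocytes and platelets. Mice of each genotype received a low-fat (LF) diet or the AMLN diet, rich in fat, fructose and cholesterol, for 32 weeks. Each table holds only genes that the authors had selected for a diet difference in that genotype at an unadjusted p under 0.05, so the diet values below describe genes already chosen for that difference in the same mice. A gene in 1 table only has no counts for the other genotype, and the genotypes could be compared for the 28 shared members alone. Whole liver was sequenced, so a different number of cells of a type and a different RNA level per cell cannot be told apart.

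Values are counts scaled to CPM with a total for each library, which ran from 17127965 to 39753019. A member was called when edgeR's quasi-likelihood test gave a Benjamini-Hochberg adjusted p under 0.05 and a log2 fold change beyond 0.25. LF replicate 3 of the TSP1ΔPf4 mice stood apart: it had the highest CPM of the 8 mice in 96 of the 147 members that were lower on AMLN in that genotype (65.3%), and in 78.0% of all 1896 listed genes that were lower. In TSP1F/F mice, LF replicate 3 was highest in 33 of 61 such members and AMLN replicate 4 in 52 of the 102 members that were higher on AMLN. Leaving out any 1 of the 16 mice changed the direction of the difference in mean CPM for 0 members. The same was true of 0 of all 2558 listed genes in TSP1F/F and 0 of 3399 in TSP1ΔPf4. Every row had been selected for a diet difference in these mice, so this check could hardly turn out otherwise. It does not show that the values are free of the weight of 1 mouse.

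Most lncRNAs were present at low levels. The median over the 163 members of the TSP1F/F table was 0.368 FPKM (a level per transcript length, as deposited), against 1.26 FPKM over its 2285 protein-coding genes. In the TSP1ΔPf4 table the median was 0.75 FPKM over members and 4.84 FPKM over 2922 protein-coding genes. A filter on low counts kept 74 of 163 members (45.4%) in TSP1F/F, where it kept 81.9% of all listed genes, and 127 of 200 (63.5%) in TSP1ΔPf4, where it kept 90.9%. On LF, 40 members of the TSP1F/F table and 18 of the TSP1ΔPf4 table had a count of 0 in all 4 mice, and on AMLN 9 and 13 members did.

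The listed members differed in direction between the tables. In TSP1F/F mice 102 of 163 (62.6%) had a higher mean CPM on AMLN, beside 67.5% of all listed genes. Of the 74 that passed the filter 41 (55.4%) were higher by the fitted value, and of the 57 with at least 1 CPM in 4 libraries 26 (45.6%) were, beside 60.2% of all genes under that filter, so the majority turned with it. In TSP1ΔPf4 mice 53 of 200 (26.5%) were higher, beside 44.2% of all listed genes and 48.3% of the protein-coding ones. The median log2 fold change over members that passed the filter was 0.93 in TSP1F/F, where all tested genes had 1.15, and -1.25 in TSP1ΔPf4, where all tested genes had -0.54. By class, 17 tested antisense genes had a median of -0.91 and 38 lincRNAs one of 1.35 in TSP1F/F. In TSP1ΔPf4 the medians were -1.38 for 42 antisense genes, -1.17 for 47 lincRNAs, -1.20 for 31 processed transcripts and -1.12 for 6 bidirectional promoter lncRNAs. Scaling by TMM moved the median over all genes to 0.95 in TSP1F/F and to -0.21 in TSP1ΔPf4, and the member medians to 0.72 and -0.89. These are different genes in the 2 genotypes for the most part, and the difference in direction was not tested.

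**Figure D1:**
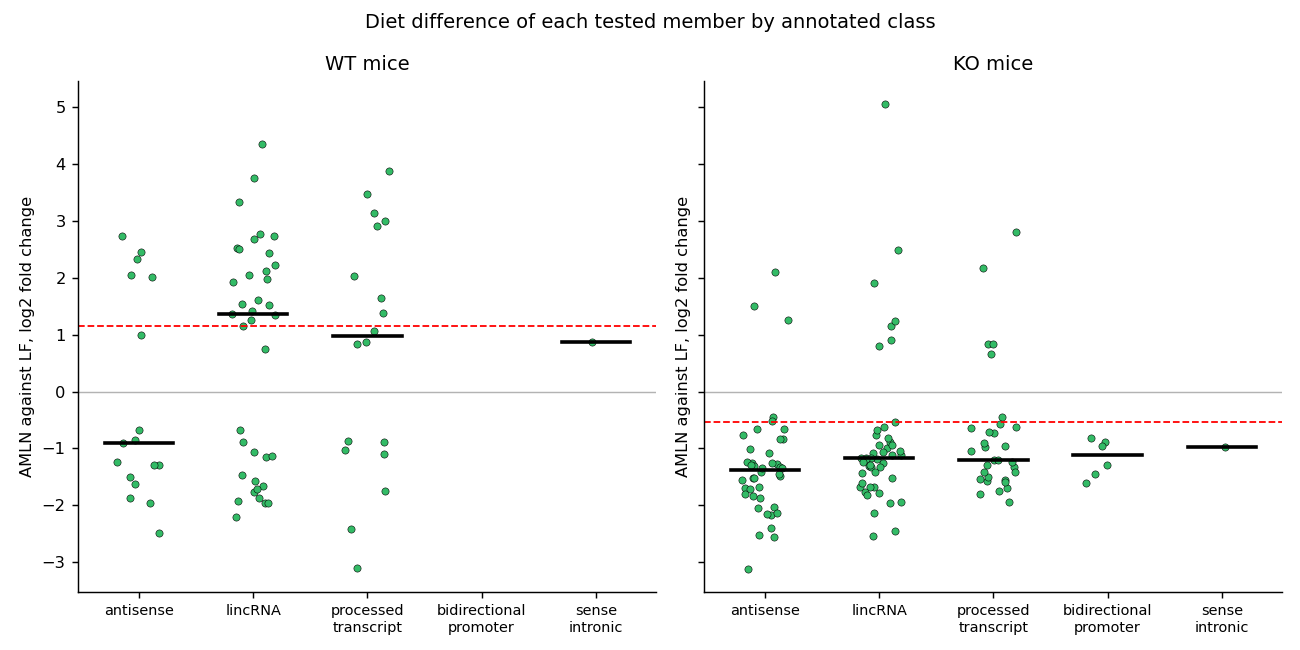
Log2 fold change of AMLN against LF (y axis) for each member that passed the filter on low counts, by annotated class (x axis), in TSP1F/F mice (left, labelled WT) and TSP1ΔPf4 mice (right, labelled KO). Black bars are class medians and the dashed red line is the median over all genes tested, 1.15 on the left and -0.54 on the right. Of the points, 41 of 74 lie above 0 on the left and 15 of 127 on the right.

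Neat1 had the lowest adjusted p of the members compared between the genotypes on AMLN. Neat1 (ENSMUSG00000092274, lincRNA, chr19:5824708-5845478 on mm10, minus strand) read 64.4, 28.2, 19.8 and 58.8 CPM in the 4 TSP1F/F mice on LF and 223, 196, 134 and 158 CPM on AMLN. In TSP1ΔPf4 mice it read 43.1, 31.5, 89.9 and 53.8 CPM on LF and 40.1, 15.5, 28.9 and 44.5 CPM on AMLN. All 4 AMLN-fed TSP1F/F livers lay above the 12 others. On AMLN, the level in TSP1ΔPf4 livers was lower than in TSP1F/F livers by a log2 fold change of -2.46 (SE 0.35, edgeR adjusted p = 0.00268), with means of 32.2 ± 13 and 178 ± 39.3 CPM (SD, n = 4 each). The exact two-sided permutation test gave p = 0.0286, the smallest that 4 against 4 mice allow. The genes compared between genotypes, on either diet, had been selected for a diet difference in each genotype in the same mice. Their edgeR and permutation p-values are therefore not those of unselected genes. On LF the genotypes overlapped (log2 fold change 0.35, SE 0.43, edgeR adjusted p = 0.817).

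The diet difference in Neat1 was also called as differing between genotypes. The genes tested for this interaction had been selected for a diet difference in each genotype in the same mice. Its p-values are therefore not those of unselected genes. Neat1 was 2.05 higher on the log2 scale on AMLN in TSP1F/F mice (SE 0.39, edgeR adjusted p = 0.0558, so not called) and -0.76 in TSP1ΔPf4 mice (SE 0.37, edgeR adjusted p = 0.301). The interaction was -2.81 (SE 0.58, edgeR adjusted p = 0.0455), and Neat1 was the one member of 24 called for it, where 0.409% of 734 tested genes were. That call was lost with TMM scaling (edgeR adjusted p = 0.0603). It was also lost in 6 of 16 fits that left out 1 mouse, namely AMLN replicate 4 of the TSP1F/F mice and AMLN replicates 1, 2 and 3 and LF replicates 3 and 4 of the TSP1ΔPf4 mice (edgeR adjusted p = 0.0516 to 0.107). Without LF replicate 1 of the TSP1ΔPf4 mice, 2 members were called (7.41%, beside 1.76% of all genes tested). Without LF replicate 3 of the TSP1F/F mice the count was also 2 (7.69% beside 0.676%).

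2410006H16Rik, a short host gene from whose introns 3 snoRNAs are cut (Snord49a, Snord49b and Snord65), was the other member called between genotypes on AMLN. This processed transcript (ENSMUSG00000086841, chr11:62602877-62604807, plus strand) read 26.6, 53.6, 39 and 59.8 CPM in AMLN-fed TSP1F/F livers and 14.2, 8.88, 6.66 and 11.7 CPM in AMLN-fed TSP1ΔPf4 livers, with no overlap. The difference was -2.11 (SE 0.34, edgeR adjusted p = 0.0041, exact two-sided permutation p = 0.0286). These p-values too are those of a gene selected for a diet difference in both genotypes. On LF it read 12.8, 20.5, 49.6 and 15 CPM in TSP1F/F and 12.0, 17.2, 77.6 and 37.7 CPM in TSP1ΔPf4 mice, where replicate 3 of each genotype was the highest. Its interaction was -2.67 (SE 0.74, edgeR adjusted p = 0.057) and fell short of the threshold. Its promoter is shown because it is the called member between genotypes that has a RefSeq window (GRCm38.p6). The window is chr11:62602627-62602926 on the plus strand, with the 250 bases before the start in lower case and the first 50 transcribed bases in capitals.
2410006H16Rik: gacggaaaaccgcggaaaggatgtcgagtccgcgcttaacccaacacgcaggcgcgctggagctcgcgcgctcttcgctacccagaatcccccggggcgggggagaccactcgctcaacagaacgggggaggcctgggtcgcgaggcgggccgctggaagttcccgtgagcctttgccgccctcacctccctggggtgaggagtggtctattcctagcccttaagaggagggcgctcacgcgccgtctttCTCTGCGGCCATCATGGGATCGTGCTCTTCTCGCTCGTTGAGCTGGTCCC

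Neat1 and 2410006H16Rik were the 2 called among 23 shared members tested on AMLN, where 9.0% of 733 tested genes were called, 8.46% lower in TSP1ΔPf4. They were also the 2 of 28 shared members whose AMLN groups did not overlap between genotypes, lower in TSP1ΔPf4, a state found in 12.4% of the tested genes. At an unadjusted p under 0.05 there were 7 members, all lower in TSP1ΔPf4, beside 25.2% of all tested genes. Over all tested genes the median difference was -0.38, and -0.10 with TMM scaling, under which Neat1 was -2.20 and 2410006H16Rik was -1.81. Both genes hold other annotated genes within their span, and neither count can be divided among them. Summed over the 8 monocyte-derived macrophage markers found in both tables of 10 fixed, the level on AMLN was 416 to 2321 CPM in TSP1F/F and 123 to 224 CPM in TSP1ΔPf4 livers, and on LF 44.7 to 412 and 43.0 to 104 CPM, with no listed marker at 0 in every mouse. In TSP1ΔPf4 mice these sums were higher on AMLN than on LF. Neat1 and 2410006H16Rik had lower means on AMLN in those mice. Neither of these diet differences was called, and the diets overlapped in both genes. On AMLN the sum over 3 of 6 Kupffer cell markers was 234 to 635 CPM in TSP1F/F and 137 to 178 CPM in TSP1ΔPf4 livers, and that over 3 of 6 stellate cell and fibroblast markers 85.8 to 171 and 21.6 to 101 CPM. The 1 endothelial marker of 4 (18.5 to 29.6 and 23.5 to 30.4 CPM) and 2 of 8 hepatocyte markers (2253 to 5210 and 3766 to 4913 CPM) overlapped between genotypes. The part of these cells in the Neat1 and 2410006H16Rik results was not tested.

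**Figure D2:**
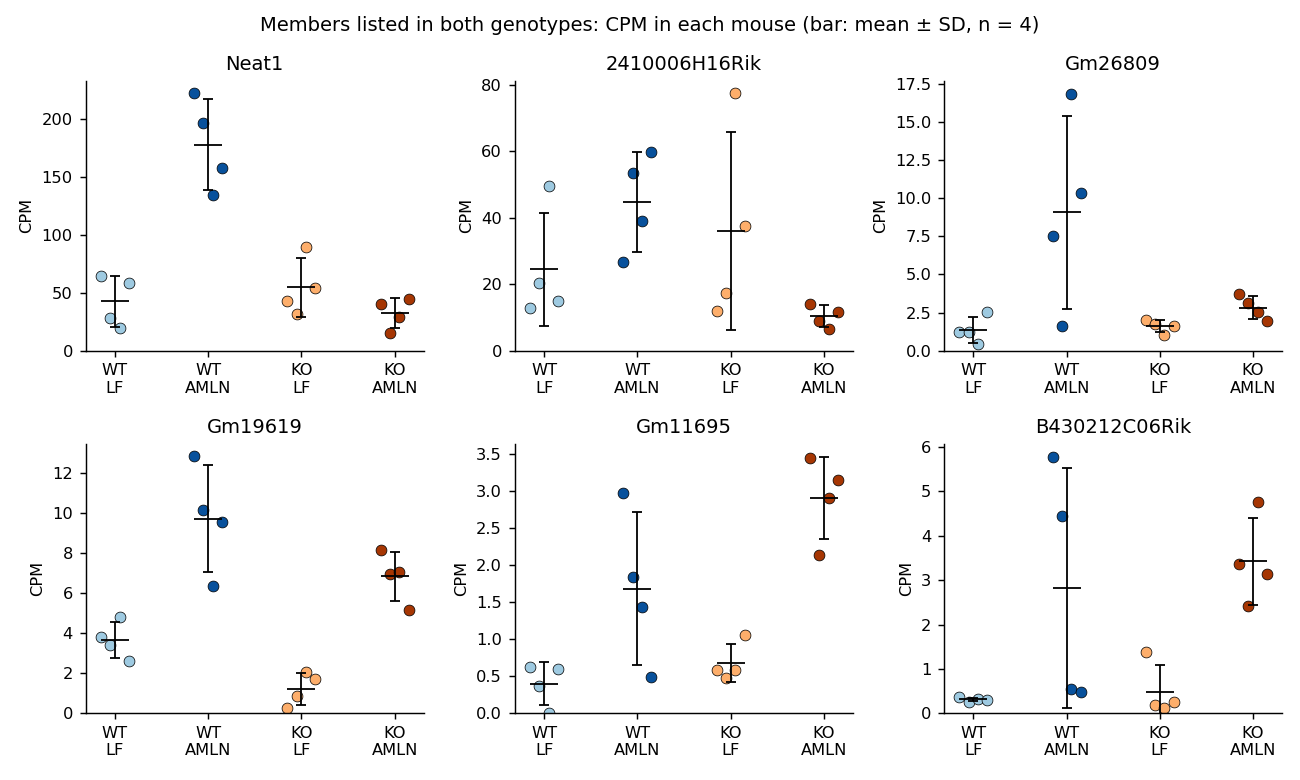
CPM in each mouse (y axis, from 0) of 6 members listed in both tables, in TSP1F/F (WT) and TSP1ΔPf4 (KO) mice on LF or AMLN (x axis). Points are mice and bars give the mean ± SD of 4 mice. The 4 AMLN-fed WT points of Neat1 lie at 134 CPM or more and every other Neat1 point at 89.9 CPM or less, while Gm19619 is higher on AMLN in both genotypes.

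The other 5 members under an unadjusted p of 0.05 on AMLN missed the adjusted threshold. Gm26809 (lincRNA, chr6:18844220-18847360) read 7.50, 1.62, 16.9 and 10.3 CPM in AMLN-fed TSP1F/F livers and 3.70, 3.13, 2.52 and 1.94 CPM in AMLN-fed TSP1ΔPf4 livers. Its difference was -1.69 (SE 0.56, edgeR adjusted p = 0.0876) and the groups overlapped through TSP1F/F replicate 2. Its interaction was -1.92 (SE 0.82, edgeR adjusted p = 0.26). Hectd2os, read opposite Hectd2, was -1.41 (SE 0.57, edgeR adjusted p = 0.145), Gm44096, read opposite C1rl, was -1.64 (SE 0.60), Gm2990 was -1.81 (SE 0.82) and 5033403H07Rik was -0.92 (SE 0.38), and each overlapped between genotypes.

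On LF no shared member was called by edgeR among 20 tested, nor was any of 640 tested genes (0.0%), and DESeq2 called 0 members. At an unadjusted p under 0.05 there were 2 members, beside 6.88% of tested genes. Gm19619 (lincRNA, chr5:91257571-91283421, minus strand) read 3.81, 3.43, 4.8 and 2.63 CPM in TSP1F/F and 0.266, 0.87, 2.04 and 1.70 CPM in TSP1ΔPf4 livers on LF, without overlap, lower in TSP1ΔPf4 as were 1.56% of the tested genes. That difference was -1.59 (SE 0.58, edgeR adjusted p = 0.624, exact two-sided permutation p = 0.0286). Hectd2os was also -1.59 (SE 0.47, edgeR adjusted p = 0.554), with 19, 71.2, 115 and 34.5 CPM in TSP1F/F livers and 21.8, 19.3, 20.8 and 17.7 CPM in TSP1ΔPf4 livers, which overlapped.

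Of the 28 shared members, 12 were higher on AMLN in both genotypes, 14 lower in both, 2 higher in TSP1F/F and lower in TSP1ΔPf4 (Neat1 and 2410006H16Rik), and 0 the other way. The 2 diet comparisons use different mice, but every shared gene had been selected for a diet difference in both. The same split over all 752 genes in both tables was not made. These counts therefore do not set the lncRNAs apart from other shared genes. Among those higher in both, B430212C06Rik, which overlaps Cidea and Impa2 on the other strand on chromosome 18, read 0.268 to 0.365 CPM on LF and 0.490 to 5.78 CPM on AMLN in TSP1F/F, and 0.117 to 1.38 CPM on LF and 2.43 to 4.75 CPM on AMLN in TSP1ΔPf4 mice. Its log2 fold changes were 3.14 (SE 0.90) and 2.79 (SE 0.65), and its interaction was -0.35 (SE 1.13). Cidea, which encodes a protein of the lipid droplet surface, went from a mean of 1.55 to 19 CPM in TSP1F/F and from 2.31 to 25 CPM in TSP1ΔPf4 mice. The starts of the pair lie 539 bases apart on opposite strands. Ifi30, a lysosomal thiol reductase gene that is annotated here as a processed transcript but as coding in RefSeq, went in mean from 9.5 to 19.9 CPM in TSP1F/F and from 8.88 to 15.8 CPM in TSP1ΔPf4 mice.

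Among those lower in both, Mir22hg went from a mean of 61.8 to 33.7 CPM in TSP1F/F and from 46.0 to 23.3 CPM in TSP1ΔPf4 mice, with log2 fold changes of -0.88 (SE 0.36) and -0.98 (SE 0.30). Gm20319, read opposite the interleukin 1 receptor accessory gene Il1rap, read 46.6 to 51.9 CPM on LF and 16.3 to 29.7 CPM on AMLN in TSP1F/F mice, and 38.4 to 49.8 CPM and 26.5 to 38.3 CPM in TSP1ΔPf4 mice. Its 2 groups did not overlap in either genotype. Il1rap went in mean from 343 to 164 CPM and from 275 to 147 CPM. None of these diet differences was called.

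**Figure D3:**
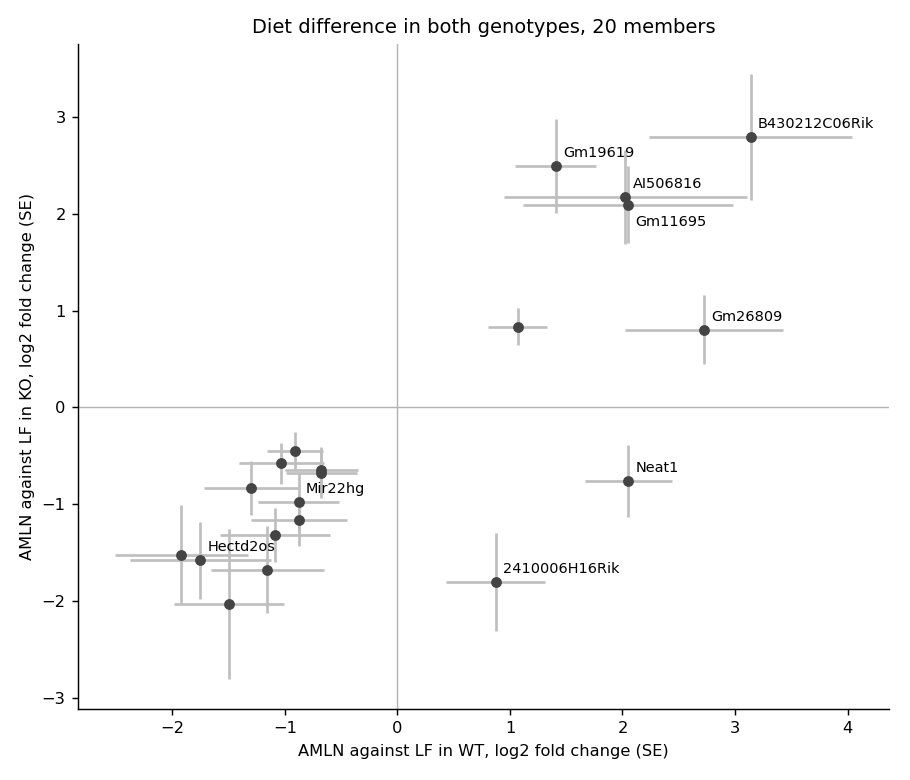
Log2 fold change of AMLN against LF with its SE in TSP1F/F mice (x axis, labelled WT) and in TSP1ΔPf4 mice (y axis, labelled KO) for the 20 members that passed the filter in both diet fits. The points have the same sign on both axes except Neat1 (2.05 and -0.76) and 2410006H16Rik (0.87 and -1.80).

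In TSP1ΔPf4 mice 5 of 127 tested members were called between diets, 3 higher and 2 lower on AMLN, where 2.98% of 3089 tested genes were called, 1.46% higher and 1.52% lower. Gm19619 read 0.266, 0.87, 2.04 and 1.70 CPM on LF and 8.14, 6.95, 7.08 and 5.17 CPM on AMLN (log2 fold change 2.49, SE 0.48, edgeR adjusted p = 0.0476). Gm11695 (antisense, chr11:115462045-115463454, overlapping Slc16a5 on the other strand) read 0.584, 0.483, 0.584 and 1.06 CPM on LF and 3.44, 2.14, 2.90 and 3.14 CPM on AMLN (2.09, SE 0.40, edgeR adjusted p = 0.0467). Gm10032 (lincRNA, chr14:66784480-66793758) was at 0 in 3 LF livers and at 0.053 CPM in the fourth, and at 0.634, 0.576, 0.67 and 0.56 CPM on AMLN. Its fitted value depends on the prior count, and in each of these 3 genes the AMLN livers all lay above the LF livers.

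The lowered pair had higher FPKM than the raised members. Chrna1os (antisense, chr2:73584850-73589208, named after the muscle acetylcholine receptor gene Chrna1) read 5.26, 6.76, 18 and 11.5 CPM on LF and 1.70, 0.699, 1.88 and 2.93 CPM on AMLN (log2 fold change -2.52, SE 0.48, edgeR adjusted p = 0.0467). Gm26917 (lincRNA, chr17:39843013-39846341) read 111, 97.8, 223 and 156 CPM on LF and 65.6, 27.5, 41.2 and 49.8 CPM on AMLN (-1.68, SE 0.33, edgeR adjusted p = 0.0476). Gm26917 is uncertain, because that stretch of chromosome 17 is where a copy of the 45S ribosomal RNA precursor lies on this build and the 2 cannot be told apart by symbol. In both genes LF replicate 3 was the highest mouse and the diets did not overlap, and without it the values were -2.12 and -1.40 with edgeR adjusted p of 0.042 and 0.037. All 5 calls sat close to the threshold. Leaving out AMLN replicate 1, 2 or 3, or LF replicate 2 or 4, ended each of them. Those fits called 0.0317% to 0.289% of all genes tested. Without LF replicate 1, 3 members were called (2.13%, beside 1.94% of all genes tested). The count was 7 without LF replicate 3 (5.07% beside 5.38%) and 10 without AMLN replicate 4 (7.41% beside 5.83%). Of the 8 such fits, the edgeR adjusted p was under 0.05 in 1 for Gm11695 and in 1 for Gm26917. It was so in 2 for Gm10032, 3 for Chrna1os and 3 for Gm19619.

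Several of the largest changes without overlap in TSP1ΔPf4 mice were not called. AI506816 read 0.903, 0.58, 0.292 and 0.584 CPM on LF and 4.20, 2.80, 2.46 and 1.29 CPM on AMLN (2.18, SE 0.49, edgeR adjusted p = 0.062). Taco1os read 1.06, 0.676, 0.584 and 0.69 CPM on LF and 0, 0, 0.159 and 0.172 CPM on AMLN (-3.11, SE 0.83). AC135964.2 read 13.7, 11.6, 57.5 and 13.4 CPM on LF and 2.67, 3.58, 3.06 and 7.28 CPM on AMLN (-2.54, SE 0.55, edgeR adjusted p = 0.06), and without LF replicate 3 it was -1.64 with an edgeR adjusted p of 0.041. Over all 200 members the groups did not overlap in 29 that were higher and 53 that were lower, beside 21.4% and 27.3% of all listed genes. In the same livers the 8 listed macrophage markers were all higher on AMLN, with sums of 43.0 to 104 CPM on LF and 123 to 224 CPM on AMLN, and 3 of 4 listed hepatocyte markers were lower, with sums of 20042 to 30659 CPM on LF and 9770 to 16157 CPM on AMLN. Their part in the member values was not tested.

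In TSP1F/F mice no member was called by edgeR between diets among 74 tested, where 2.48% of 2096 tested genes were called. At an unadjusted p under 0.05 there were 57 members, 35 higher and 22 lower (77.0% of those tested), beside 80.2% of all tested genes. DESeq2 called 22 members (29.7%), beside 35.4% of all tested genes. The groups did not overlap in 43 higher and 21 lower of the 163 members, beside 33.9% and 13.3% of all listed genes. 3110039I08Rik (chr9:41327077-41716994) had the lowest adjusted p after Neat1. It read 0.104, 0.161, 0 and 0.225 CPM on LF and 1.85, 2.20, 2.06 and 1.58 CPM on AMLN (3.87, SE 0.82, edgeR adjusted p = 0.084). Gm30692 read 0 to 0.482 CPM on LF and 0.762 to 3.90 CPM on AMLN (3.75, SE 1.09). BE692007, which overlaps the myeloid gene Ms4a6c on the other strand, read 0 to 0.496 CPM on LF and 0.584 to 2.67 CPM on AMLN (3.48, SE 1.15), and Ms4a6c itself had means of 0.786 and 6.0 CPM.

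Among lowered members in TSP1F/F mice, Gm27252 read 4.12, 3.97, 4.14 and 3.08 CPM on LF and 1.36, 0, 0 and 0.381 CPM on AMLN (-3.10, SE 1.17, edgeR adjusted p = 0.372). Gm35696 read 3.29, 4.93, 9.93 and 3.34 CPM on LF and 0.787, 2.83, 0.931 and 1.14 CPM on AMLN (-1.92, SE 0.59). 4732463B04Rik, read opposite the peroxisomal acyl-CoA thioesterase gene Acot3, read 1.93 to 4.95 CPM on LF and 0.327 to 1.09 CPM on AMLN, and Acot3 had means of 54.9 and 19.2 CPM. In these 3 lncRNAs every AMLN liver lay below every LF liver, which was a condition for naming them. The 9 listed macrophage markers were all higher on AMLN in these mice, with sums of 81.8 to 442 CPM on LF and 478 to 2443 CPM on AMLN. The 3 listed hepatocyte markers were all lower, with sums of 5880 to 8433 CPM on LF and 2471 to 5507 CPM on AMLN, and the 4 listed stellate cell and fibroblast markers all higher (9.49 to 24.2 and 88.9 to 172 CPM). The part of these cells was not tested.

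The host genes of snoRNAs were listed mainly in TSP1ΔPf4 mice. Of 20 host lncRNAs in a fixed list, 9 were in that table, all lower in mean on AMLN, and 1 (Snhg18) was in the TSP1F/F table, where it was higher. The median log2 fold change of the 9 was -1.08, beside -1.25 over all 127 tested members and -0.54 over all tested genes. None was called, and the diets did not overlap in 2 (Snhg12 and Dancr), beside the 27.3% of all listed genes that did not overlap in that direction. Gas5 read 30.7, 31.7, 56.7 and 38.5 CPM on LF and 24.4, 22.0, 16.2 and 33.3 CPM on AMLN (-0.72, SE 0.27, edgeR adjusted p = 0.184). Zfas1 read 8.34, 11.0, 41.0 and 21.1 CPM on LF and 6.54, 4.98, 5.64 and 10.5 CPM on AMLN (-1.56, SE 0.46, edgeR adjusted p = 0.105). Snhg12 read 6.43, 7.73, 9.87 and 6.95 CPM on LF and 3.94, 3.25, 3.03 and 4.61 CPM on AMLN (-1.06, SE 0.26, edgeR adjusted p = 0.0779). LF replicate 3 was the highest mouse for Gas5, Zfas1 and Snhg12. Without it all 9 were still below 0, from -0.47 in Snhg6 to -1.47 in Dancr, and Zfas1 was -0.96. Their sign could hardly have changed, since all listed genes had been selected for a diet difference. Of all 3399 listed genes, 0 changed the direction of their mean difference without that mouse. GENCODE M21 places a snoRNA inside 11 members of the TSP1ΔPf4 table on the same strand, 10 of them lower and 1 higher (AI506816). Lower there were also 55.8% of all listed genes, 147 of all 200 members and 112 of the 127 tested members. The snoRNA entry inside AI506816 is named Mir3096. GENCODE M21 places a snoRNA inside 4 members of the TSP1F/F table, of which 3 were higher (Snhg18, 2410006H16Rik and AI506816) and 1 lower (Cct6a). It places none inside 1810026B05Rik, which the fixed list holds. Snhg18, which shares a start region with Sema5a 148 bases away on the other strand, read 2.77, 2.95, 5.40 and 1.88 CPM on LF and 5.78, 9.74, 8.55 and 8.77 CPM on AMLN in TSP1F/F mice (1.34, SE 0.41, edgeR adjusted p = 0.244). Sema5a had means of 0.186 and 1.44 CPM.

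**Figure D4:**
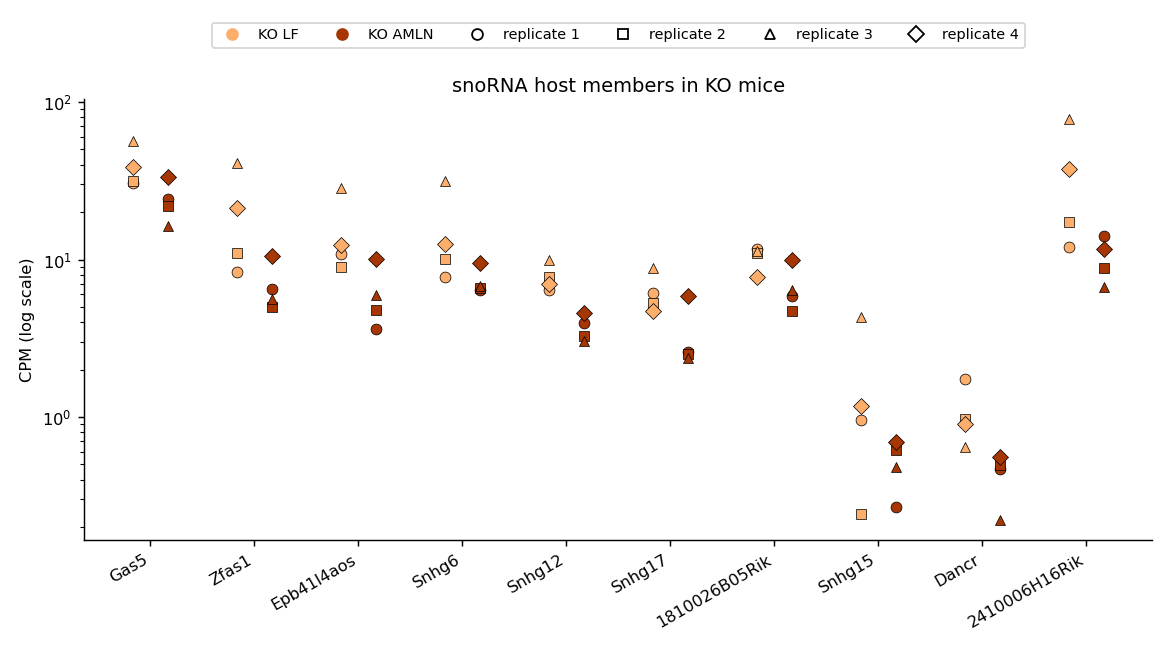
CPM on a log scale (y axis) in each TSP1ΔPf4 mouse for the 9 fixed snoRNA host lncRNAs and 2410006H16Rik (x axis), LF in light and AMLN in dark orange, with a marker shape for each replicate number. The triangle of LF replicate 3 is the highest point for Gas5, Zfas1, Epb41l4aos, Snhg6, Snhg12, Snhg17, Snhg15 and 2410006H16Rik, and not for 1810026B05Rik or Dancr.

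Host genes of snoRNAs often begin with a run of pyrimidines, the mark of the 5′ terminal oligopyrimidine class of transcripts. The starts of 4 hosts are shown to compare them, 15 bases before and 25 from the RefSeq start (GRCm38.p6), with the unbroken run of C and T from the first transcribed base in capitals.
2410006H16Rik: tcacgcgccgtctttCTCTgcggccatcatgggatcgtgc
Snhg12: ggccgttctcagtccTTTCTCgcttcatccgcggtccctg
Snhg18: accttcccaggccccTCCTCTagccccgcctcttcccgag
Zfas1: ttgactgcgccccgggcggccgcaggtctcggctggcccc
A run of 4 or more was present in 3 of the 10 host members with a window (those 3 above), and in 6.86% of all 32851 RefSeq windows. A run could begin with C or T, and those of Snhg12 and Snhg18 begin with T. The count is of pyrimidine runs only and does not assign these hosts to the 5′ terminal oligopyrimidine class. The annotated start can lie away from the used one, as for Snhg12, where the RefSeq and the deposited starts differ by 55 bases.

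MicroRNA hosts were few. Of 17 in a fixed list, 3 were in the TSP1F/F table (Mir142hg and Mirt2 higher on AMLN, Mir22hg lower) and 3 in the TSP1ΔPf4 table (Mirt2 higher, Mir99ahg and Mir22hg lower), and none was called. Mirt2 is in that list but holds no microRNA in GENCODE M21, and it is also in the immune list. A microRNA of GENCODE M21 lay inside 7 members of the TSP1F/F table on the same strand, 6 of them higher on AMLN, and inside 4 of the TSP1ΔPf4 table, all lower. Of all members, 62.6% were higher in TSP1F/F and 147 of 200 were lower in TSP1ΔPf4. The mature microRNAs themselves were not measured. Their sequences from RefSeq (GRCm38.p6) are shown because 2 hosts carry related clusters, with the seed (bases 2 to 8) in capitals: 3110039I08Rik holds miR-100, a let-7a copy and miR-125b, and Mir99ahg holds miR-99a, let-7c and miR-125b.
mmu-miR-100-5p: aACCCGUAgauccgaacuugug
mmu-miR-99a-5p: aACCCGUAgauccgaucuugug
mmu-miR-125b-5p: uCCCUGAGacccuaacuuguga
mmu-let-7c-5p: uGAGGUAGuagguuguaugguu
mmu-miR-22-3p: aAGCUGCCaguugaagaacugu
mmu-miR-142a-3p: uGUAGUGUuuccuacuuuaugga
mmu-miR-223-3p: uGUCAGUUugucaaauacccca
The first pair share a seed, and miR-125b-5p is the same in both clusters. Of the 2 hosts, 3110039I08Rik was higher on AMLN in TSP1F/F mice (values above) and Mir99ahg was lower in TSP1ΔPf4 mice, at 1.54, 1.98, 2.98 and 2.81 CPM on LF and 0.467, 0.411, 0.478 and 1.08 CPM on AMLN (-1.94, SE 0.46, edgeR adjusted p = 0.0678). Each is listed in 1 genotype only, so they could not be compared in the same mice. Mir142hg, host of the leukocyte microRNA miR-142, read 0, 0.214, 0 and 0.038 CPM on LF and 0.454, 0.718, 0.377 and 0.762 CPM on AMLN in TSP1F/F mice. F630028O10Rik, host of the myeloid miR-223, read 0.375 CPM in 1 LF liver and 0 in the others, and 0.484, 0.18, 0.906 and 3.65 CPM on AMLN. Of these, neither passed the filter on low counts. The macrophage marker sums given for TSP1F/F mice were also higher on AMLN, as were 67.5% of all listed genes. The part of these cells in the 2 host values was not tested.

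The remaining fixed lists held few listed members. Of 13 imprinted lncRNAs, 3 were in the TSP1F/F table, all higher on AMLN, and 0 in the other. Meg3, expressed from the maternal allele, was at 0 in all 4 LF livers and read 0.242, 0, 0.503 and 1.47 CPM on AMLN, where 1 liver was at 0 and replicate 4 was the highest. Peg13 read 2.48 to 4.20 CPM on LF and 5.12 to 7.47 CPM on AMLN (0.87, SE 0.37), and Kcnq1ot1 read 0.827 to 2.59 CPM and 2.66 to 4.57 CPM (0.99, SE 0.49), both without overlap. Of 17 nuclear and chromatin lncRNAs, 4 were in the TSP1F/F table, all higher, and 2 in the TSP1ΔPf4 table, both lower, Neat1 being in each. Trerf1, 1 of those 4, is protein-coding in RefSeq. Jpx, an activator of Xist, was lower in TSP1ΔPf4 mice (-1.24, SE 0.57). Of 17 immune and inflammation lncRNAs, 4 were in the TSP1F/F table, all higher, and 2 in the other, Mirt2 higher and Gm26917 lower. Trp53cor1, a target of p53, was at 0 on LF and read 0.545, 0.943, 1.08 and 0 CPM on AMLN in TSP1F/F mice. Mirt2 read 0 to 0.15 CPM on LF and 0.182 to 0.988 CPM on AMLN in TSP1F/F, and 0 to 0.212 CPM and 0.043 to 1.08 CPM in TSP1ΔPf4 mice. None of these differences other than that of Gm26917 was called between diets.

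The liver and lipid list of 18 had 4 members in the TSP1F/F table, all lower on AMLN with a median of -1.47, and 6 in the TSP1ΔPf4 table, 5 lower and 1 higher with a median of -1.21. Gm15441, which overlaps the Txnip gene on the other strand, read 9.03, 4.18, 34.6 and 35.3 CPM on LF and 3.27, 5.84, 2.99 and 2.83 CPM on AMLN in TSP1F/F mice (-2.48, SE 0.63, edgeR adjusted p = 0.156), where 1 LF liver lay within the AMLN range. 0610005C13Rik, read opposite the branched-chain aminotransferase gene Bcat2 and the member with the highest mean FPKM in TSP1ΔPf4 mice, read 205, 259, 378 and 253 CPM on LF and 126, 116, 115 and 160 CPM on AMLN (-1.08, SE 0.24, edgeR adjusted p = 0.0614), without overlap. Bcat2 had means of 23 and 15.5 CPM. Gm10804 was the higher one, at 1.43 to 6.10 CPM on LF and 4.20 to 8.18 CPM on AMLN (0.91, SE 0.42).

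Many members overlap another annotated gene, and fewer lie near a listed coding gene. The span of 227 of the 335 members overlaps another gene of GENCODE M21, for 139 a coding gene on the other strand and for 17 one on the same strand. Whether reads were counted by strand is not stated, so reads of an lncRNA and of a gene opposite it cannot be told apart. Within 5000 bases on the opposite strand, 16 pairs of a member and a listed coding gene were found in the TSP1F/F table (15 of 163 members). Of these, 14 went in the same direction. The TSP1ΔPf4 table held 33 such pairs (33 of 200 members), 21 with the same direction. Where the starts of such a pair were within 1000 bases, 4 of 4 and 7 of 12 went the same way. The share over other pairs of listed genes was not computed. With 67.5% of listed genes higher in TSP1F/F and 55.8% lower in TSP1ΔPf4, unrelated genes would often agree, so no conclusion is drawn from these counts. On the same strand, Snhg15 and the nearby Myo1g went opposite ways in TSP1ΔPf4 mice, at -1.70 (SE 0.73) and 1.17 (SE 0.45), and Snhg15 was -0.62 without LF replicate 3. A pair on opposite strands that went the same way was that of Gm13775 (-1.50, SE 0.42), which begins 854 bases from Mup19, a major urinary protein gene of a family of near-identical copies, whose mean was 193 CPM on LF and 5.92 CPM on AMLN.

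The promoters of members were searched for 5 short motifs on both strands. A RefSeq window of 300 bases was matched for 134 of 335 members, and for 4 of the 7 called in any comparison. The AP-1 motif TGANTCA is found in 7.81% of all windows, the CCAAT box in 37.4%, the TATA box TATAAA in 13.6%, the STAT motif TTCNNNGAA in 8.3% and the ETS motif GAGGAAGT in 3.2%. In the 134 windows of members the shares were 9.7%, 32.1%, 8.21%, 6.72% and 2.24% in the same order, and no test of the difference was made. The 4 windows of called members held none of these letters. The window of Chrna1os is printed as that of a called member with its start 10 bases from the deposited one, at chr2:73584610-73584909 on the plus strand, with the transcribed bases in capitals.
Chrna1os: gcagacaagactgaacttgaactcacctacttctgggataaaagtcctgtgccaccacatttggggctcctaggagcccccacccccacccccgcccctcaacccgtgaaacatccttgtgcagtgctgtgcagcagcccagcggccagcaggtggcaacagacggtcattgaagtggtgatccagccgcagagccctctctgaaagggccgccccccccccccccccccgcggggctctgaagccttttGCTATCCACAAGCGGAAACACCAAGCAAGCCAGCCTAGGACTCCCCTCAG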

How the data were processed

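Liver RNA was sequenced as paired reads. The paper names STAR 2.7.8a and mm10, whereas the submitters' processing notes name HISAT2 and DESeq2; the counting program, annotation release and strand setting are not given in the sources used here. The authors deposited raw counts per gene, signal values (counts divided by a size factor per library) and FPKM values for each mouse. They also deposited log2 fold changes and p-values from DESeq2 for the diet comparison; these were used only to find that 0 rows had an unadjusted p of 0.05 or more and that the authors adjusted over 16784 genes (TSP1F/F) and 13927 genes (TSP1ΔPf4), and none is printed.

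Library totals were derived from counts, gene lengths and FPKM, and CPM are counts over those totals. Counts were tested with edgeR 4.0.16 (quasi-likelihood, filterByExpr, prior count 0.125). Benjamini-Hochberg adjustment ran over the authors' number of genes for diet and over the genes tested for genotype and interaction. Calls required adjusted p-values below 0.05 and a log2 change of more than 0.25 in size. The test ran on simulated data first. Exact two-sided permutation tests used log2(CPM + 0.1). With all rows preselected on the diet difference, genotype tests cover genes listed in both tables. Alternatives were DESeq2 1.42.0, other scalings, filters and fold thresholds, a replicate block and leaving out each mouse. Coordinates, overlaps and hosted RNAs come from GENCODE M21 and promoters and microRNAs from RefSeq GRCm38.p6, using a window only if its start lay within 500 bases of the deposited start. Intervals and floors (3 counts) cover counting error only. Each library came from 1 mouse, 4 per group, as the study's methods state. Members named in the text are those called, the 8 largest rises and falls without overlap per diet comparison, shared members with an unadjusted p under 0.05 between genotypes, the 10 highest in CPM, listed members of 6 fixed gene lists, and the neighbours of these; the text describes a part of them. F630028O10Rik, Ifi30, Anxa13, Gm6712 and Gpr141b lie outside this rule and were picked with their values in view. The members and lists were chosen with earlier results of these data known.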

Additional observations from a re-analysis of the deposited data

Results flagged for a closer look

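The diet difference in Neat1 was flagged because it differed between the genotypes, by a log2 interaction of -2.81 (SE 0.58, edgeR adjusted p = 0.0455, TSP1ΔPf4 minus TSP1F/F). It was tested among genes already selected for a diet difference in each genotype in the same mice.

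A mouse stood far from the other 3 of its group in 14 of 160 groups of named members checked, where chance flags about 5%. In TSP1F/F mice on AMLN these were Gm15441 in replicate 2 (5.84 CPM, the next highest at 3.27 CPM), 4732440D04Rik in replicate 4 (0 CPM, the next lowest at 0.393 CPM), 4833411C07Rik in replicate 4 (19.5 CPM against 9.11 CPM) and Gm36161 in replicate 4 (5.28 CPM against 1.57 CPM). In TSP1F/F mice on LF they were Gm20319 in replicate 3 (51.9 CPM against 46.9 CPM) and Gm27252 in replicate 4 (3.08 CPM, the next lowest at 3.97 CPM).

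In TSP1ΔPf4 mice on LF they were AC135964.2 in replicate 3 (57.5 CPM against 13.7 CPM), B430212C06Rik in replicate 1 (1.38 CPM against 0.265 CPM) and 1810026B05Rik in replicate 4 (7.75 CPM, the next lowest at 11 CPM). On AMLN, replicate 4 was highest for Snhg17 (5.86 CPM against 2.60 CPM), Snhg6 (9.47 CPM against 6.79 CPM), Mir99ahg (1.08 CPM against 0.478 CPM) and Gm48633 (39.7 CPM against 19.8 CPM), and replicate 2 for Gm49024 (0.452 CPM against 0.319 CPM). Snhg17, Snhg6, Mir99ahg and Gm48633 each had a lower mean on AMLN than on LF.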

How the results depend on the processing

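Between genotypes on AMLN, the 2 called members stayed at 2 in all fits except 4 with the replicate block (17.4% beside 15.8% of all genes) and 2 to 3 when 1 mouse was left out. Without members that overlap another gene the count was 0. That outcome was fixed in advance, since both called members overlap other genes and were themselves left out. Neat1 kept its call in every fit with 1 mouse left out, from -2.66 to -2.23. On LF the count was 0 in every fit. For the interaction, 1 member was called, against 2 with DESeq2 (8.33% beside 5.99%). The count was 0 with TMM (beside 0.274%) and 0 with the replicate block (beside 0.0%). With 1 mouse left out it was 0 to 2 (0.0% to 7.69%, beside 0.0% to 3.26%). The count was also 0 without members that overlap another gene, which leaves out Neat1 itself. Between diets in TSP1ΔPf4 mice, 5 members were called (3.94%, beside 2.98% of all genes tested). The count was 34 with DESeq2 (26.8% beside 44.5%) and 8 with TMM (6.2% beside 6.49%). It was 100 when adjusted over the listed genes tested (78.7% beside 70.8%) and 0 with the replicate block (beside 0.129%). With 1 mouse left out it was 0 to 10 (0.0% to 7.41%, beside 0.0317% to 5.83%). In TSP1F/F mice none was called by edgeR, with 57 at an unadjusted p under 0.05, against 22 with DESeq2 (29.7% beside 35.4%), 1 without a filter (0.613% beside 3.24%) and 42 when adjusted over the listed genes tested (56.8% beside 53.6%). The cause of these changes was not tested. Between diets, mice with the same number correlated from -0.30 to 0.20 in TSP1F/F and from -0.41 to 0.18 in TSP1ΔPf4. Mice with different numbers correlated from -0.27 to 0.23 and from -0.39 to 0.57. No pairing by number was thus seen between the diets of a genotype. Pairing across genotypes was not checked, and the block stays an alternative. Of 1470 refits of 86 single values, 1332 kept their direction and call, 44 lost it, 94 gained it and 0 reversed. The direction of the diet values was nearly fixed by the selection. A value that was not called counts as kept when it stayed uncalled. These counts therefore do not show that the calls are stable. Authors' size factors for the genotype tests, and leaving out members that RefSeq calls coding, were chosen after seeing the data. Members with few counts could not be tested: 89 in TSP1F/F and 73 in TSP1ΔPf4 were dropped by the filter.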
